A study of Mus musculus with 4 samples.

Results

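The suppressors of cytokine signalling (SOCS) are a small family of proteins that shut down cytokine receptors after they have fired. The family was taken here as Socs1 to Socs7 and Cish, and the members were chosen by name: probe sets whose platform annotation gives only that gene symbol, 1 per gene. All 8 genes were measured, each by 1 probe set, among 30142 genes in all. The samples were Lin- c-Kit+ cells (LK cells, a fraction holding blood stem and progenitor cells) from NOD mice, a strain that develops autoimmune diabetes. They had been cultured for 4 h either with DMSO as vehicle (2 arrays) or with 10 µM of dimethyl prostaglandin E2 (dmPGE2) plus 10 µM of dexamethasone (2 arrays, called the combination here). dmPGE2 is a long-lived prostaglandin E2 analog that acts through cAMP, and dexamethasone is a synthetic glucocorticoid. No array carried either drug alone, so the effects of the drugs cannot be told apart. The labels give neither the age nor the number of the mice behind a sample, nor whether animals were pooled. The duplicates are described as biological, and if they share a source the p-values measure only the spread between these samples.

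A cytokine receptor signals through Janus kinases (JAKs), which phosphorylate STAT transcription factors, and STATs in turn switch on Socs genes, so that the family forms a feedback loop. Each protein carries an SH2 domain, which docks on phosphorylated receptors or kinases, and a SOCS box, which recruits an elongin and cullin ubiquitin ligase. SOCS1 and SOCS3 also hold a short segment that blocks the kinase directly, and in blood progenitors the family limits the response to interferons, interleukins, erythropoietin, thrombopoietin and G-CSF.

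Signals below are log2 values made with RMA (a background-corrected, normalized probe set summary), and differences are combination minus vehicle. Array medians lay between 4.36 and 4.44. The mean of the 23 background probe sets was 3.07 to 3.16 per array. Single background probe sets reached 5.55, so a signal under that value may hold little specific signal. The background range below means values up to this highest one. Signals are not compared between genes, since probe sets differ in response. Kit itself was at 10.18 and 10.32 with vehicle and 10.51 and 9.62 with the combination. Cd3e and Cd4, which mark T cells, lay between 3.72 and 4.10 on every array, within the background range. Of the 7 measured T and NK cell markers, 6 had both group means in that range. The exception, Nkg7, was at 13.03 and 12.51 with vehicle and 12.60 and 12.75 with the combination. The arrays numbered 1 stood apart from those numbered 2 in both groups: interferon-induced genes such as Usp18 and Isg15, and neutrophil granule genes such as Ngp, Camp and Ltf, were lower on arrays 2 than on arrays 1. In bulk RNA of this kind, a lower signal from fewer cells of a type cannot be told apart from less RNA per cell.

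Across the family, 0 of 8 genes passed limma's test with Benjamini-Hochberg adjustment over all features (threshold 0.05), where 0.00303% of all 65956 features passed. The lowest adjusted p among the members was 0.58 and the highest 1.00. At an unadjusted p under 0.05, 1 of the 8 passed, against 5.58% of all features. Differences were positive for 4 members and negative for 4, with a median of -0.0031, beside a median of 0.02 over all features. The combination arrays lay wholly above the vehicle arrays for 2 members, Socs1 and Socs3, where 20.4% of all features did so, and wholly below for 2, Socs5 and Socs7, where 13.9% did so. With so few genes these counts lie near the background shares, and the only member with an unadjusted p under 0.05 was Socs1.

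**Figure D1:**
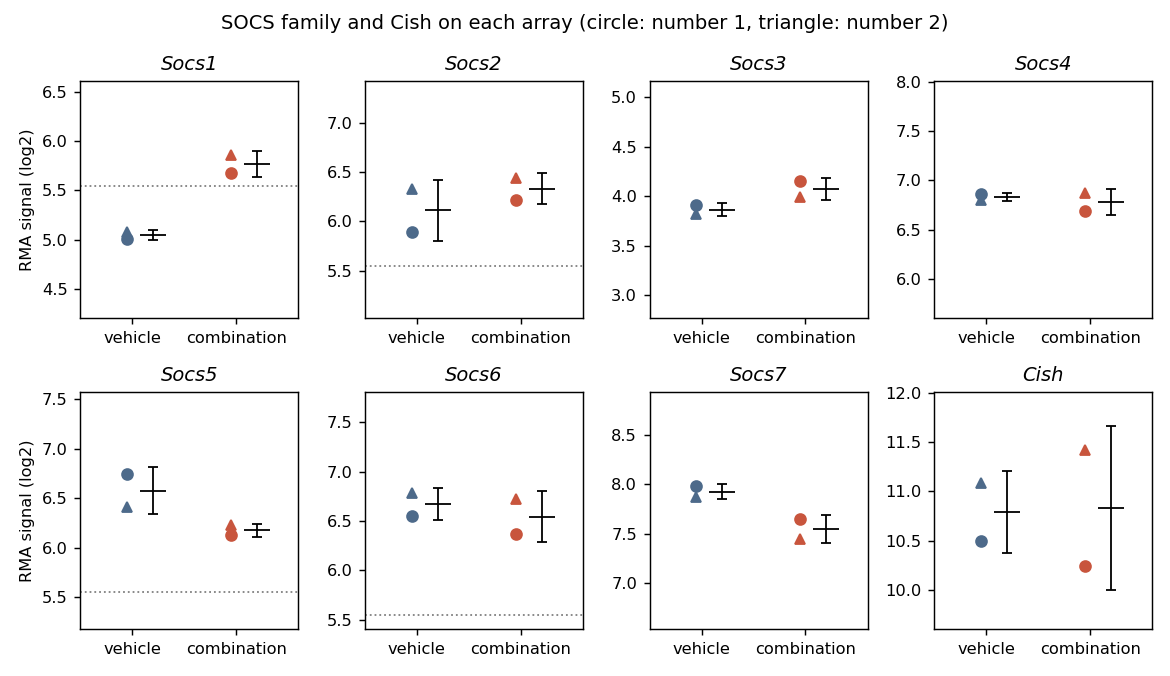
RMA signal (log2) of each member on the 4 arrays, with circles for arrays numbered 1, triangles for arrays numbered 2, and the mean ± SD (n = 2) to the right of each pair. Every panel spans the same number of log2 units around its own mean, and the dotted line marks 5.55, the highest single background probe set. Socs1 shows the widest gap between the groups, while the spread within a group is largest for Cish.

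Socs1, which binds and inhibits JAK1, JAK2 and TYK2 and is the main brake on interferon-gamma signalling, had the largest difference of the family. Its signal was 5.01 and 5.08 on the vehicle arrays and 5.67 and 5.86 on the combination arrays. Both combination values lay above both vehicle values, and the vehicle signal lay under 5.55, the top of the background range, while the combination signal did not. The means were 5.05 ± 0.05 and 5.77 ± 0.13 (SD, n = 2), a log2 difference of 0.72 (SE 0.14, 95% interval 0.35 to 1.09), or 1.65-fold. In limma the unadjusted p was 0.0048 and the adjusted p 0.58, so the difference did not pass over all features. A difference at least as large in either direction was found in 3.14% of all features, and 250 of the 30142 genes had a smaller p. Taken within each number, the difference was 0.66 for arrays 1 and 0.78 for arrays 2. Because low signals are compressed by RMA, the fold of a gene this close to background may be understated.

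The sequence before the Socs1 start is shown because this is the member with the largest difference. Promoter windows of 300 bases (250 before to 50 after the start) from RefSeq, build GRCm38.p6, were taken for 4 of the 8 members: Socs1, Socs3, Socs4 and Cish. No window was at hand for Socs2, Socs5 and Socs7, and the chromosome that holds Socs6 was left out for the members. Each was searched on both strands for a STAT motif (TTCNNNGAA), a core of the interferon response element (GAAANNGAA), the CREB half-site (TGACG) and full site (TGACGTCA), and the core of the glucocorticoid response element (ACANNNTGT). The 250 bases before the Socs1 start, chr16:10785537-10785786, minus strand, are printed 5′ to 3′ with matches to GAAANNGAA in capitals.
Socs1: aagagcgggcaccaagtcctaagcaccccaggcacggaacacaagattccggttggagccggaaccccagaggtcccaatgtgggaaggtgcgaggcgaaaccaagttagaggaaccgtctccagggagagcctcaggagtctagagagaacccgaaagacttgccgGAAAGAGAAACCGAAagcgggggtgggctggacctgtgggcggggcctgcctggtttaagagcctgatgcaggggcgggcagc
The window held 2 matches to GAAANNGAA, which overlap, at -83 to -75 and -77 to -69 from the start (position 1 is the first base of the gene), and 8.55% of 32817 promoter windows of this length held at least 1. It held 0 matches to the STAT motif, to both CREB forms and to the glucocorticoid core. The motifs were chosen with these windows in view, and a match describes letters in this window and is not a measured binding site.

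Genes with the profile nearest to Socs1 were sought among 19042 other protein-coding genes, by the Euclidean distance between the 4 log2 signals after each gene was centred on its own mean. Over these 4 arrays the 5 nearest were Traf1, Cacna1d, Ccl12, Gldc and Baz2b, with distances of 0.05 to 0.09. Cacna1d and Gldc lay within the background range on every array. The vehicle arrays of Traf1 and Ccl12 and combination 1 of Ccl12 also lay within it. Traf1, an adaptor of TNF receptors, was at 5.04 and 5.14 with vehicle and 5.75 and 5.88 with the combination, a difference of 0.73. Likeness over 4 arrays describes these libraries and is not a test.

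Socs3, which restrains the receptors for interleukin-6 family cytokines and for G-CSF, stayed within the background range on every array. Its signals were 3.91 and 3.81 with vehicle and 4.15 and 3.99 with the combination. The groups did not overlap, but the log2 difference was 0.21 (SE 0.14, 95% interval -0.16 to 0.57) and did not pass (limma unadjusted p = 0.20, adjusted p = 0.94). At this signal a change of Socs3 may not be detectable. The promoter window of Socs3 held 1 match to the STAT motif, at -154 to -146, and 8.29% of all windows held at least 1.

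Cish and Socs2, both known as STAT5 targets that limit signalling by growth hormone and by STAT5-activating cytokines, showed no difference larger than the spread between arrays. Cish was at 10.49 and 11.08 with vehicle and at 10.24 and 11.41 with the combination. The combination arrays lay on either side of both vehicle arrays, and their mean, 10.83 ± 0.83, differed from the vehicle mean, 10.79 ± 0.41, by 0.04 (95% interval -1.14 to 1.23, limma adjusted p = 1.00). The difference was -0.25 between arrays numbered 1 and 0.33 between arrays numbered 2. Cish thus had the widest interval of the family, one that holds a 2-fold change in either direction. Socs2 was at 5.89 and 6.33 with vehicle and at 6.22 and 6.44 with the combination, so the groups overlapped. Its difference was 0.22 (95% interval -0.32 to 0.75, limma adjusted p = 0.96), and it was -0.00077 without vehicle 1. The STAT motif had 2 matches in the Cish window, at 1 to 9 and 12 to 20 after the start. These sites and the Socs3 site are printed with the motif in capitals, since they are the STAT matches in the 4 member windows searched. The Cish stretch is chr9:107296655-107296682, plus strand, and the Socs3 stretch chr11:117969502-117969530, minus strand.
Cish: agttTTCCTGGAAagTTCTTGGAAatct
Socs3: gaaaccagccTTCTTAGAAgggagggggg
The Cish window also held 1 CREB half-site, at -97 to -93, as did the Socs4 window, at -1 to 4, and 20.8% of all windows held at least 1.

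The 4 remaining members are the longer SOCS proteins. Socs7, which interacts with adaptor proteins and insulin signalling, was at 7.98 and 7.87 with vehicle and at 7.65 and 7.45 with the combination. Both combination arrays were lower, with a mean difference of -0.38 (SE 0.14, 95% interval -0.76 to 0.01), and limma's unadjusted p was 0.052 and its adjusted p 0.89. Limma's unadjusted p for Socs7 was 0.0499 in the fit that blocked on replicate number. It was 0.045 after a second quantile normalization and 0.037 after each array was centred on its median. The adjusted p values of these fits were 0.60, 0.90 and 0.84. In the other fits on all 4 arrays the unadjusted p lay above 0.05, from 0.053 with a robust prior to 0.13 with an intensity trend. With 1 array left out the mean difference ran from -0.48 to -0.28. The difference was -0.33 for arrays 1 and -0.42 for arrays 2. Socs5, which limits interleukin-4 and EGF receptor signalling, was at 6.74 and 6.41 with vehicle and at 6.13 and 6.22 with the combination. Here too the combination arrays were lower, with a mean difference of -0.40 (SE 0.17, 95% interval -0.85 to 0.04; limma unadjusted p = 0.068, adjusted p = 0.90). The gap was wider in 1 pair: the difference was -0.61 for arrays 1 and -0.19 for arrays 2, and it was -0.23 without vehicle 1.

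Socs6, which binds the KIT receptor, was at 6.56 and 6.79 with vehicle and at 6.36 and 6.73 with the combination. The groups overlapped, with a difference of -0.13 (95% interval -0.62 to 0.37, limma adjusted p = 0.97). Socs4, a relative of Socs5, was at 6.86 and 6.80 with vehicle and at 6.69 and 6.88 with the combination, a difference of -0.05 (95% interval -0.42 to 0.32, limma adjusted p = 0.99). Without combination 1 both differences turned, to 0.054 for Socs6 and 0.045 for Socs4. For both genes the interval leaves out a 2-fold difference, and a p that misses the threshold does not show that the groups are alike.

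**Figure D2:**
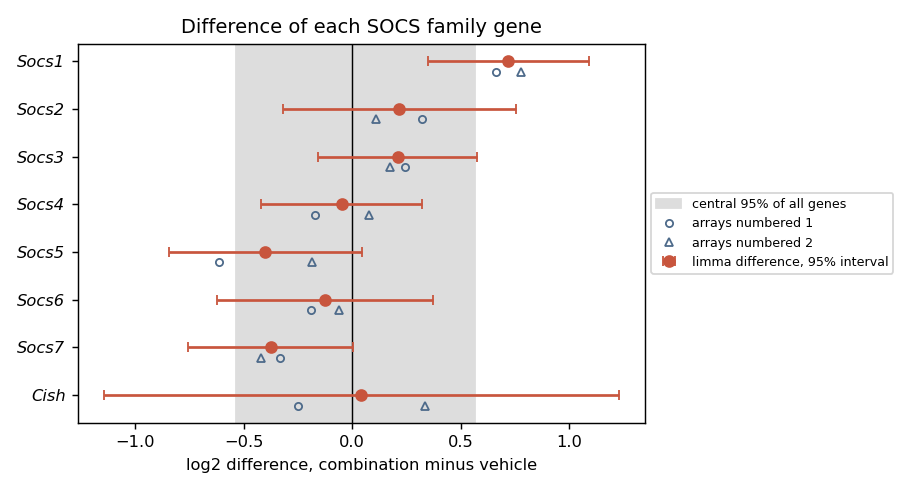
Log2 difference, combination minus vehicle, of each member with limma's 95% interval, and below it the difference within the arrays numbered 1 (open circle) and numbered 2 (open triangle). The grey band holds the central 95% of all 30142 genes, -0.54 to 0.57, and Socs1 at 0.72 is the only member whose difference lies outside it.

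Between the duplicates of one group, the members other than Cish differed little where interferon genes differed by far. Usp18, an interferon-induced brake on the type I interferon receptor, was at 14.17 and 7.43 with vehicle and at 14.41 and 7.95 with the combination. Isg15, a ubiquitin-like interferon-induced protein, was 4.55 lower on vehicle array 2 than on vehicle array 1 and 4.12 lower on combination array 2 than on combination array 1 (both log2). Rsad2, Oasl2, Ifit1 and Irf7 were also more than 4 log2 units lower on arrays 2 in both groups. Socs1 differed between the duplicates by 0.07 with vehicle and 0.19 with the combination, in the opposite direction. Cish had the largest such difference of the family, 0.59 and 1.17, also higher on arrays 2. Among all genes, 0.697% differed by more than 1 log2 unit in the same direction in both groups. The part of this difference between the numbers in the Socs results was not tested, and the values within each number are given above. Usp18, Isg15 and the other interferon genes in this paragraph were picked after their values were seen.

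**Figure D3:**
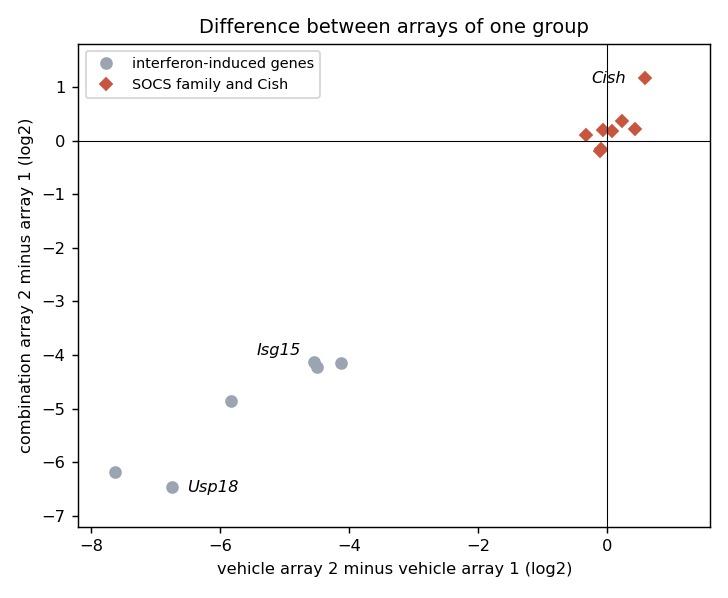
Difference between the arrays of one group (number 2 minus number 1, log2), for vehicle on the horizontal and the combination on the vertical axis, with diamonds for the 8 members and circles for the interferon-induced genes Usp18, Isg15, Rsad2, Oasl2, Ifit1 and Irf7, chosen with their values in view. The members other than Cish lie between -0.33 and 0.43 on both axes, while these genes reach -7.63 with vehicle and -6.46 with the combination.

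The wider pathway was described with 11 lists of 149 distinct measured genes, given by counts at an unadjusted p under 0.05 in limma beside 2.66% of all 30142 genes for higher and 2.65% for lower calls. At that level 31 of the 149 were higher and 7 lower. Of the 31 higher genes, 9 were glucocorticoid receptor targets and 8 cAMP targets, which were listed for the drugs and not for SOCS signalling. With limma's p adjusted over all features 0 of the 149 passed, beside 1 of all 30142 genes (0.00332%). Of 9 measured JAKs and STATs, 2 were higher and 0 lower. Stat4, which carries interleukin-12 signals, was at 6.72 and 6.57 with vehicle and 7.71 and 8.14 with the combination, 2.43-fold higher (limma adjusted p = 0.45). Jak2, the kinase of the erythropoietin and thrombopoietin receptors and a target of SOCS1, was 1.45-fold higher (limma adjusted p = 0.87). Stat5a, Stat5b and Stat3, which drive Cish, Socs2 and Socs3, differed by -0.29, -0.17 and -0.01, none of them at an unadjusted p under 0.05. The median of the list was -0.02, and its 2 calls were 1 without vehicle 1, without vehicle 2, with an intensity trend, with a filter at the median and after centring.

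Among 14 other brakes on JAK-STAT signalling, 1 was higher and 1 lower. Ptpn1, a phosphatase that acts on JAK2 and TYK2, was at 8.96 and 9.60 with vehicle and at 11.44 and 12.00 with the combination. This is 5.42-fold (SE of the log2 difference 0.30, limma adjusted p = 0.34), with 2.48 for arrays 1 and 2.40 for arrays 2. Ptpn6, the phosphatase SHP-1, was at 10.70 and 11.21 against 9.71 and 10.23, 1.98-fold lower (limma adjusted p = 0.80). The differences of the phosphatase genes thus lay on opposite sides of 0, and the list's median was -0.02. The 2 calls of this list were 1 without vehicle 2 and 1 without combination 1. Ptpn2, a further phosphatase of JAKs and STATs, differed by 0.12.

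SOCS proteins recruit a ubiquitin ligase through the SOCS box. Of 8 measured ubiquitin ligase partners 0 were called in either direction, with a median of -0.03. Elongin B (Elob) differed by -0.27 and Ube2f, an enzyme that conjugates the ubiquitin-like protein NEDD8, by -0.45. The count was 1 when replicate number was blocked. Of 26 other genes that encode a SOCS box, 0 were higher and 1 lower. Asb3 was at 6.70 and 6.78 against 6.31 and 6.36 (difference -0.40, limma adjusted p = 0.84), a call lost without vehicle 2, without combination 2, with an intensity trend and with a filter at the median. Wsb2 differed by 0.34 and did not reach an unadjusted p of 0.05. For 15 of the 26, both group means lay within the background range.

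Receptors under SOCS control had more calls than the background, with 6 of 27 measured genes higher and 3 lower and a median of 0.05. For 7 of the 27, both group means lay within the background range. Lifr, 1 of the 3 lower calls, was among these 7. The leptin receptor gene Lepr, whose product SOCS3 limits, was at 4.12 and 4.04 against 8.03 and 7.11, a log2 difference of 3.49 (limma adjusted p = 0.22). Its vehicle arrays lay within the background range, so the size of this difference is uncertain. Il7r was at 5.44 and 6.03 against 7.24 and 8.21, 3.98-fold higher (limma adjusted p = 0.58), with vehicle 1 within the background range. The interleukin-2 receptor alpha chain gene Il2ra was 6.50-fold lower and Il6st, which encodes the shared receptor subunit that SOCS3 docks on, 4.27-fold lower (limma adjusted p = 0.14 and 0.63). Ifngr1, the ligand-binding chain of the interferon-gamma receptor that SOCS1 restrains, was at 10.28 and 10.07 against 11.09 and 12.04, 2.62-fold higher (limma adjusted p = 0.75). The log2 difference of Ifngr1 was 0.81 for arrays 1 and 1.97 for arrays 2. Ifngr2, Ifnar1 and Ifnar2, the other interferon receptor genes of the list, differed by 0.003, 0.30 and -0.16, without a call. Ifngr1, Ifngr2, Ifnar1 and Ifnar2 were picked after their values were seen. Receptors thus lay on both sides of 0, also among those that 1 SOCS protein serves.

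Of 21 measured genes for cytokines that signal through JAKs, 0 were called in either direction (1 without vehicle 1, with the replicate number as a block, after a second quantile normalization and after centring), with a median of 0.01. For 20 both means lay within the background range, among them Il4, which had the smallest p of the list (difference -0.47, limma adjusted p = 0.90). The exception was Il6, at 8.25 and 7.96 against 7.79 and 7.93.

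Counts for STAT targets were as follows. Of 13 STAT3 targets 4 were higher and 0 lower, with a median of 0.12. Hif1a, the hypoxia factor, was 2.42-fold higher and the myeloid factor Cebpb 1.38-fold higher (limma adjusted p = 0.63 and 0.81). Timp1 and Ier3 were the other 2, and both of their group means lay within the background range. The 4 calls were 2 without vehicle 2, with a filter at the median and after centring, and 1 without combination 2. Of 11 STAT5 targets other than Cish and Socs2, 0 were higher and 1 lower, Il2ra, and the kinase gene Pim2 differed by -1.10 without a call. The count of this list was 3 without vehicle 1, without combination 1 and with replicate number blocked. Of 8 STAT6 targets 1 was higher, Retnla, and 2 lower, the mannose receptor gene Mrc1 (4.57-fold) and the chemokine gene Ccl24 (2.73-fold). Both group means of Retnla, 4.19 and 5.07, lay within the background range, as did those of 4 of the 8 in all.

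Among genes listed for the drugs, 9 of 10 glucocorticoid receptor targets and 8 of 9 cAMP targets were higher and 0 lower, with medians of 1.18 and 1.18. Both lists were chosen with earlier results of these data known, so the counts are no independent check of the drugs. The cAMP count was 3 without vehicle 1 and 5 without vehicle 2. Per1, a clock gene, was 4.20-fold and Crem, a cAMP response factor gene, 3.37-fold higher (limma adjusted p = 0.21 and 0.29). The other glucocorticoid targets with the smallest p were Nfkbia, Tsc22d3 and Dusp1, with differences of 1.91, 1.22 and 2.10. For cAMP they were Ptgs2 and Irs2, with differences of 1.70 and 2.68, and Fos, at 4.00 and 4.20 against 5.08 and 6.11. The vehicle arrays of Ptgs2 and Fos, combination 1 of Fos and vehicle 1 of Per1 lay within the background range. For 2 of the 9 cAMP targets, Nr4a1 and Nr4a3, both group means lay within it, and both genes are among the 8 calls.

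**Figure D4:**
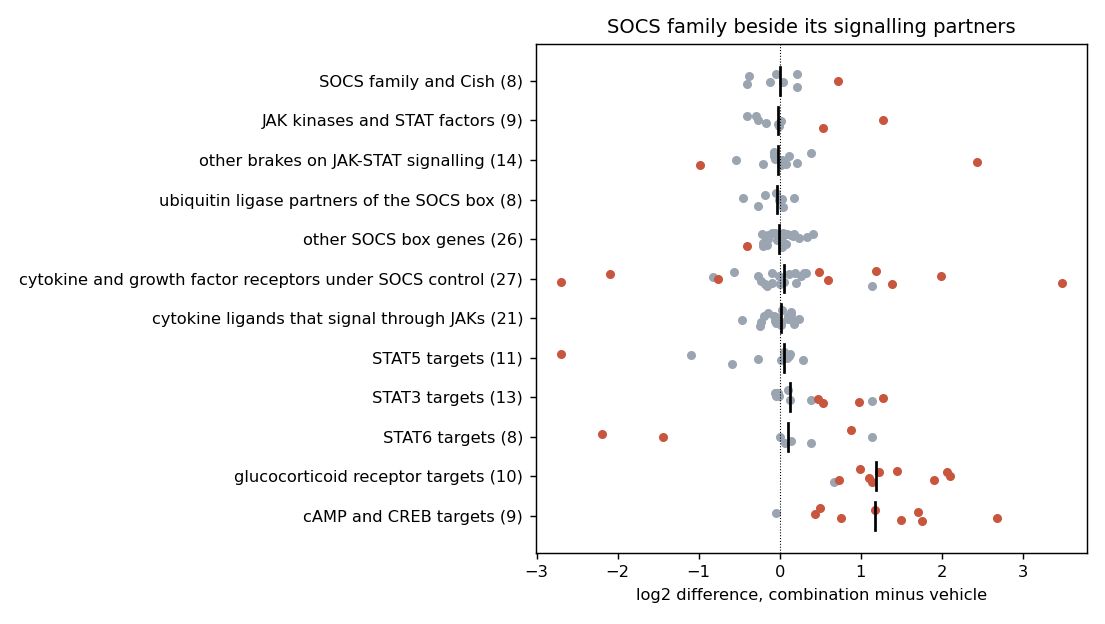
Log2 difference, combination minus vehicle, of each gene in the SOCS family and in the 11 pathway lists, with the number measured in brackets, the median as a vertical bar, and red points at a limma unadjusted p under 0.05. The SOCS family has a median of -0.0031 and 1 red point, Socs1, while the glucocorticoid and cAMP lists lie to the right of 0 apart from Nr4a2 at -0.05.

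Markers of mature cells and of LK cells were counted in the same way, in 9 lists. In none of these lists did a gene pass limma's adjusted threshold, the lowest adjusted p being 0.094 for Il1r2. The counts below are at an unadjusted p under 0.05, where 2.66% of all genes were higher and 2.65% lower. Each list is given with the log2 of its summed signals, vehicle first. In some lists 1 gene sets nearly all of this sum, which then is no level of a cell type. On vehicle 1, Mpo alone was at 17.86 (LK cells), Nkg7 at 13.03 (T and NK cells) and Pf4 at 12.19 (megakaryocytes). Of 11 neutrophil markers 3 were higher (Il1r2, Cxcr2 and Mmp8) and 0 lower, with sums of 14.32 to 16.51 and 15.40 to 16.68. Without a call, Ly6g differed by -0.33, both combination arrays lying below both vehicle arrays. S100a8, S100a9, Mmp9, Retnlg, Ngp, Ltf and Camp differed by 0.03 to 0.70, also without a call. In both groups 9 of the 11 were lower on arrays 2 than on arrays 1, and for 3 both means lay within the background range. Il1r2, a decoy receptor for interleukin-1, was at 4.36 and 4.86 with vehicle, within the background range, and at 10.25 and 10.95 with the combination. Of 7 monocyte and macrophage markers Cd14 was higher and Ccr2, Adgre1 and Csf1r were lower, with sums of 11.77 to 12.39 and 11.98 to 12.26. Of 6 LK cell markers 0 were higher and 2 lower, Cd48 and Myb, with sums of 17.93 to 18.20 and 17.68 to 17.93. Of 6 mast cell and basophil markers Hdc was higher and Ms4a2 lower, with sums of 15.43 to 15.94 and 15.25 to 15.54. Of 4 erythroid markers Tfrc, the transferrin receptor gene, was lower (sums of 11.88 to 12.45 and 11.55 to 11.76), and Epor differed by -0.56 without a call. Of 4 megakaryocyte markers Ppbp, a platelet chemokine gene, was higher (12.31 to 12.84 and 12.63 to 13.16), and Gp9 differed by -0.37 without a call. Ppbp was at 4.95 and 4.33 with vehicle, within the background range, and at 9.80 and 10.52 with the combination. Of 6 dendritic cell markers Cd209a was lower (9.31 to 9.60 and 8.32 to 8.44), Itgax differed by 0.26 without a call, and 3 of the 6 lay within the background range in both groups. Of 5 B cell markers Ebf1 was lower (7.22 to 7.70 and 7.27 to 7.35) and Pax5 differed by -0.38 without a call. For 4 of the 5, Ebf1 and Pax5 included, both means lay within the background range. Of 7 T and NK cell markers 0 were called (12.54 to 13.05 and 12.62 to 12.77), with differences of 0.36 for Cd8a and 0.22 for Cd3e. All but Nkg7, 6 of the 7, lay within the background range in both groups. No marker is at 0 on an RMA scale. The part of cell makeup in the difference of Socs1 was not tested.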

How the data were processed

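Biotin-labelled RNA of 4 samples was measured on Affymetrix whole-transcript arrays, 1 array per sample. The values the authors deposited are on a log2 scale. The submitters' processing notes name RMA and the Transcriptome Analysis Console, without versions, and the genome build was not given in those notes. RMA pulls the arrays towards 1 distribution and compresses low signals. Of 72688 rows, 6732 control rows were left out. Of the 65956 features kept, 30604 had 1 gene symbol, 2146 had several and 33206 had none listed. Entrez identifiers matched the RefSeq table (GRCm38.p6) for 22818 features, and the feature with the highest mean stood for each gene. The test was limma 3.58.1 in R 4.3.3 (lmFit, eBayes), two-sided, on all 65956 features with no term besides group, 2 residual degrees of freedom and Benjamini-Hochberg adjustment, and the script was tested on simulated data. Intervals are 95% intervals from limma's moderated SE. Arrays carry no read depth, and 2 arrays per group limit the precision.

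The members, lists and tests were chosen with earlier results of these data known. Named are all 8 members and, per list, up to 4 genes with the smallest unadjusted p under 0.05, or the 2 smallest where fewer than 2 were under it. Genes named beside these (Kit, Ngp, Camp, Ltf, Cd4, Mpo, Nkg7, Pf4, Stat3, Stat5a, Stat5b, Ptpn2, Ifngr1, interferon genes, Nr4a2) were added after their values were seen. So were Ly6g, S100a8, S100a9, Mmp9, Retnlg, Ifngr2, Ifnar1, Ifnar2, Lifr, Nr4a1 and Nr4a3. The result of 1 planned list is not reported here. Alternatives were a robust prior, an intensity trend, the replicate number as a block, filters on dim features, control rows kept, a second quantile normalization, centring and leaving out each array. No member had a second probe set to try.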

Additional observations from a re-analysis of the deposited data

How the results depend on the processing

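None of the 8 members passed limma's adjusted threshold under any of the 12 alternatives, and the difference of Socs1 stayed between 0.63 and 0.81 with an unadjusted p between 0.0049 and 0.031 and an adjusted p between 0.33 and 1.00. The samples share replicate numbers but the labels do not say that a number marks a shared animal or day, and the deviations of same-numbered arrays correlated at 0.33 over all features. With the replicate number as a block, 19 features passed in place of 2, and 2 members in place of 1 had an unadjusted p under 0.05, Socs7 being the second. The block moved the counts of 3 lists by over 1.5 times, to 1 for the ubiquitin ligase partners, 1 for the cytokine genes and 3 for the STAT5 targets. The count of features was 0 with an intensity trend, with filters at the 25th percentile and at the median, with control rows kept and after a second quantile normalization, and 0 to 0 when 1 array was left out. The count of members at an unadjusted p under 0.05 was 2 after a second quantile normalization and 2 after centring, with Socs7 the second in both, and 1 to 2 when 1 array was left out, with Socs5 the second without vehicle 2 (difference -0.57). Of 95 differences of members under the alternatives, 6 changed sign: Cish to -0.011 after centring, -0.25 without vehicle 1 and -0.54 without combination 2, Socs2 to -0.00077 without vehicle 1, and Socs4 and Socs6 to 0.045 and 0.054 without combination 1. With 1 array left out, the difference ran from -0.54 to 0.63 for Cish, -0.00077 to 0.43 for Socs2, -0.14 to 0.045 for Socs4 and -0.31 to 0.054 for Socs6. The cause was not tested. The filter at the median removed Socs3. The number of pathway genes at an unadjusted p under 0.05, 38 of 149, stayed within 1.5 times under each of the 12 alternatives, while 25 counts of single lists moved by more. Signal over background limits Socs3 and the vehicle arrays of Socs1.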
